A study of Homo sapiens with 15 samples.

Results

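The alcohol dehydrogenases are zinc-containing enzymes that oxidise alcohols to aldehydes with NAD+ as the electron acceptor, and they also reduce aldehydes in the reverse direction. In humans the family falls into classes. ADH1A, ADH1B and ADH1C encode the class I subunits that carry most ethanol oxidation in the liver, ADH4 encodes the class II enzyme of the liver, and ADH6 encodes the class V enzyme, whose substrates are little characterised. ADH5 encodes the class III enzyme, which is made in nearly all tissues, oxidises the glutathione adduct of formaldehyde and reduces S-nitrosoglutathione. ADH7 encodes the class IV enzyme of the stomach and oesophagus, which also oxidises retinol. All 7 genes were members here, chosen by symbol, and each was represented by 1 of the 135750 transcript clusters analysed on the array, a transcript cluster being its gene-level unit. The family was proposed because ADH6 and ADH1C were among the clusters called lower at the high dose than in clean air, so differences of the 7 members that involve the high-dose arrays are given as a description, and no test of them is read. All other comparisons with clean air share its arrays with that choice, so their results are not independent of it. The tests from the fit of all groups also share their estimate of spread with it.

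RNA was measured on 15 Human Clariom D arrays of A549 cells, an established human lung adenocarcinoma line, grown on microporous membranes with their upper side open to the air. Control cells without any flow (NEC) and clean air control cells (CA) were set against cells given dimethylamine vapour, a volatile amine, at 14.9 ppm (low dose, LD), 41.1 ppm (mid dose, MD) or 81.7 ppm (high dose, HD), with 3 arrays in each group. The vapour or clean air was applied for 60 min and cells then recovered for 23 h, and this was done 3 times in 72 h, so the RNA shows the state after the last recovery. Each array held RNA pooled from 2 wells, so that p-values refer to the spread among pooled wells of 1 cell line, which may be technical. By the labels all LD arrays belonged to exposure plate 1, all MD arrays to plate 5 and all HD arrays to plate 6. CA and NEC had 1 array on each of these plates, so a dose and its plate are separated only through those control arrays. A plate number may cover several physical plates, so values within a plate number need not come from the same physical plate. Epithelial markers were present, and their list averaged 13.3 in HD, 13.25 in CA and 12.77 in NEC on the log2 scale. All 6 genes of the list lay above the median of the negative-control clusters in every group. Of 6 alveolar type II markers, 4 lay below that median in every group and 1 above it. Above it in every group were also 5 of 8 hepatocyte markers, 7 of 10 leukocyte markers, 4 of 6 fibroblast markers and 1 of 5 endothelial markers. The hepatocyte list averaged 6.21 in HD, 6.47 in CA and 6.49 in NEC on the log2 scale, the leukocyte list 6.20, 6.03 and 5.93 in that order, the fibroblast list 6.48, 6.57 and 6.39, and the endothelial list 4.14, 4.08 and 4.17. Single markers moved more than these means. HD minus CA was -0.90 for the urea cycle enzyme CPS1 (15.26 in HD and 16.16 in CA), -0.70 for SERPINA1 and -0.64 for TF, both secreted by hepatocytes, and 0.69 for APOB, which lay below the negative controls on all arrays. It was 2.19 for the B cell receptor gene CD79A (13.23 in HD and 11.04 in CA), while CD3D and MS4A1 lay below the negative controls on all arrays. Among the epithelial markers HD minus CA was -1.11 for the adhesion gene CDH1 (8.24 in HD and 9.35 in CA), -0.29 for EPCAM and -0.07 for NQO1. The keratins of the same list went the other way, at 0.99 for KRT19, 0.53 for KRT18 and 0.27 for KRT8. These markers were named after their values were seen, and their part in the values of the alcohol dehydrogenases was not tested. In bulk RNA, fewer cells that express a gene and less RNA per cell cannot be told apart.

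The 7 genes lie in a single cluster on chromosome 4 (GRCh38.p14), all transcribed from the minus strand. In order of coordinates they are ADH5 (99070978 to 99088788), ADH4 (99123658 to 99144297), ADH6 (99202639 to 99219246), ADH1A (99276369 to 99290985), ADH1B (99304971 to 99321401), ADH1C (99336497 to 99352746) and ADH7 (99412263 to 99435342). Because members that lie side by side differed in the values below, the promoters of 5 of them are shown, from RefSeq, build GRCh38.p14, as 250 bases before and 50 bases after the annotated start. The sequences read 5′ to 3′ on the minus strand and cover chr4:99219197-99219496 for ADH6, chr4:99352697-99352996 for ADH1C, chr4:99321352-99321651 for ADH1B, chr4:99290936-99291235 for ADH1A and chr4:99088739-99089038 for ADH5. Capitals mark matches to the motifs searched, which are named after the sequences.
ADH6: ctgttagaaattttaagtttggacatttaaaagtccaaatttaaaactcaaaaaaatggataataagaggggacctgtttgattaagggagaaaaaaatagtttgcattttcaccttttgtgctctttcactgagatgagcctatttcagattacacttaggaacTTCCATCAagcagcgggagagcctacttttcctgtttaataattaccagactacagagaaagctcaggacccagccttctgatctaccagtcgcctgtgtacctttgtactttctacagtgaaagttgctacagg
ADH1C: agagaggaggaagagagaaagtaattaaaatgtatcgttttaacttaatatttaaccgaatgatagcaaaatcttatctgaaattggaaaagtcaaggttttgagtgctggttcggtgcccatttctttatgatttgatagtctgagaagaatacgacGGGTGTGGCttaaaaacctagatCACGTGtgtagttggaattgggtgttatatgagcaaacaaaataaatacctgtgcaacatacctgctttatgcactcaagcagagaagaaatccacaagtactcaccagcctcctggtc
ADH1B: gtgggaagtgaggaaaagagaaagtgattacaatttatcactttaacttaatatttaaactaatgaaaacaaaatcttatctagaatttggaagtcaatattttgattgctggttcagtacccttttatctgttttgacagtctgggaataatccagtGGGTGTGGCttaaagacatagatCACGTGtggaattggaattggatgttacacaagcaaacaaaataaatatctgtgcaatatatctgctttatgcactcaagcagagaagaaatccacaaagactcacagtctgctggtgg
ADH1A: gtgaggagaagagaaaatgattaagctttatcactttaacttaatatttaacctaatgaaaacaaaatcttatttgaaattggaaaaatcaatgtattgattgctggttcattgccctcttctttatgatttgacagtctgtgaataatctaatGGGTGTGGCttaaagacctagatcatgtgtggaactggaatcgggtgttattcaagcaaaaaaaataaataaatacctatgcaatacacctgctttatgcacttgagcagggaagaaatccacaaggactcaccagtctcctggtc
ADH5: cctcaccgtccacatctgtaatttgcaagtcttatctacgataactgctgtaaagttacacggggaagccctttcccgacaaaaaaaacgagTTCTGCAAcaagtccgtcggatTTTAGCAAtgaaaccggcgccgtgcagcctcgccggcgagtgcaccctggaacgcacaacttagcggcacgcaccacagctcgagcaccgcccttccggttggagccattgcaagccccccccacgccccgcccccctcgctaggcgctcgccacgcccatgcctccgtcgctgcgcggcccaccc
The 3 class I promoters were 82.3 to 82.9% identical to each other over all columns of the alignment, gaps included, whereas all other pairs among the 7 were 45.0 to 52.6% identical. The GT box GGGTGTGGC, searched on both strands and chosen after the sequences had been read, was present in ADH1A, ADH1B and ADH1C and in 0.963% of 27305 promoter windows of the same length. The E box CACGTG followed it in ADH1B and ADH1C but did not occur in the ADH1A window, and 7.43% of all windows held it. ADH6 held 1 match to the C/EBP-ATF composite TGATGNAA on the opposite strand, written as its reverse complement in the capitals above, and 3.67% of windows held that motif. ADH5 held 2 matches to the C/EBP site TTNNGCAA, which occurred in 10.6% of windows, also in ADH4 and ADH7, and was searched on both strands like the others. Of the other motifs searched, the TATA box TATAAA matched in ADH4 and ADH7 (12.0% of windows) and the HNF1 motif GTTAAT in ADH4 (6.89% of windows). The GC content of the ADH5 window was 61.3%, against 35.0 to 39.0% in the other 6 members and a median of 58.3% over all windows. A match says only that these letters occur there.

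ADH6 was the member called at the mid dose. Its log2 signals were 11.15, 11.37 and 11.46 in NEC, 11.53, 11.66 and 11.17 in CA, 10.71, 10.95 and 10.17 in LD, 9.42, 9.76 and 9.33 in MD, and 9.23, 8.50 and 9.09 in HD. The arrays of NEC and CA overlapped, and every neighbouring pair of groups from CA to HD was separated without overlap. ADH6 fell by 1.82 in MD against NEC (SE 0.25, 95% confidence interval -2.35 to -1.30, limma adjusted p = 0.0218), a 3.54-fold lower signal. The MD and NEC means share no array with the comparison from which the family was proposed. The SE and the p-value do, because the spread was estimated over all groups, HD and CA included. The call is therefore not independent of that choice. Fitting only the MD and NEC arrays gave -1.82 and a limma adjusted p of 0.174, so the call was lost. ADH6 was the only 1 of the 7 members called lower in MD against NEC. Of all clusters, 0.00663% were called lower there and 0.0147% in either direction. With the exposure plate as a block the value was -1.94 and the limma adjusted p 0.172, so the call was lost, and within plate 5 the MD mean minus the NEC array was -1.86. The call was also lost when any 1 of the 3 NEC or 3 MD arrays was left out, at limma adjusted p between 0.0624 and 0.168 and values between -1.95 and -1.74. The largest of these adjusted p-values came without MD replicate 3. The paper removed the same sample from its sequencing (TempO-Seq) data as an outlier. On the arrays this sample had a mean r of 0.982 with its own group.

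**Figure D1:**
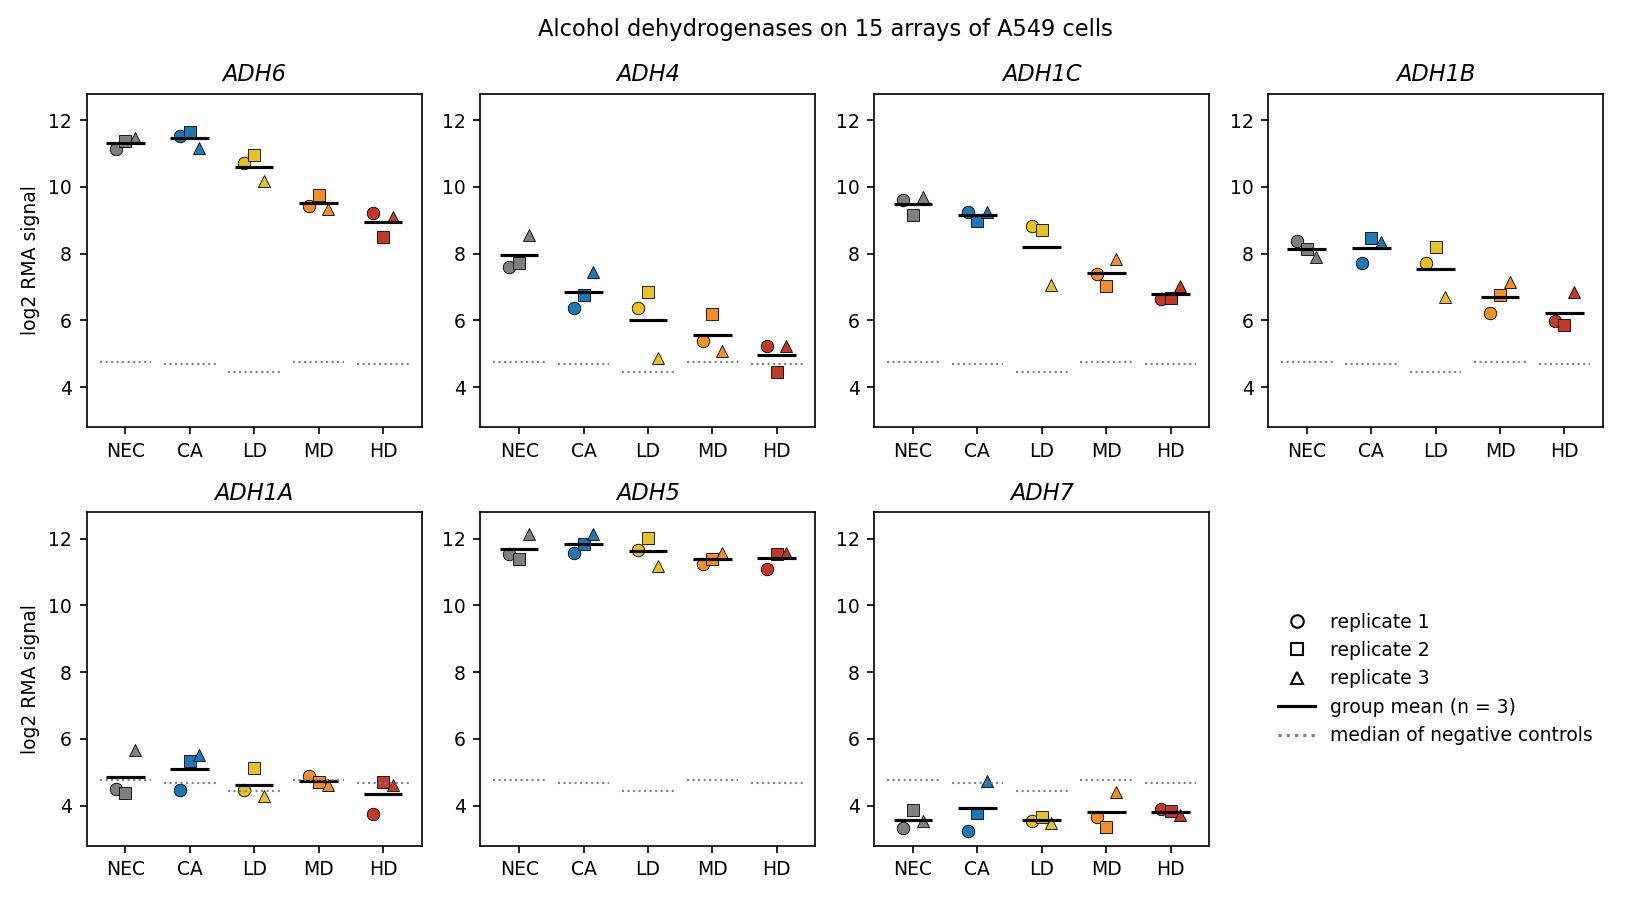
Log2 RMA signal of each alcohol dehydrogenase (vertical axis) on the 15 arrays by group, from non-exposed and clean air controls to the highest dose. Symbols are replicates, bars are means of 3 arrays and dotted lines the group mean of the negative-control medians; ADH6, ADH1C, ADH1B and ADH4 have their lowest means in HD, and ADH7 lies below the dotted line on 14 of 15 arrays.

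Against clean air, ADH6 differed by -1.95 in MD (SE 0.25, 95% confidence interval -2.48 to -1.43, limma adjusted p = 0.0807) and by -0.85 in LD (SE 0.25, limma adjusted p = 0.706). Its p-value was the smallest of all 135750 clusters in MD against CA, where 0 clusters passed the adjusted threshold with limma and 8378 had an unadjusted p below 0.05. The CA arrays were also part of the comparison from which the family was proposed, so this rank is no independent support. In MD against CA the call was reached without LD replicate 3 (limma adjusted p = 0.0479) and with an intensity trend in the prior (0.0354). Only 2 of the 15 fits with an array left out passed. None of the 6 that left out an MD or CA array did, at limma adjusted p between 0.12 and 0.322. Over the other settings the adjusted p ran up to 0.812. MD minus LD was -1.11 (SE 0.25, limma adjusted p = 0.255), and again 0 clusters passed in that comparison with limma, against 11639 at an unadjusted p below 0.05. As a description, HD minus CA was -2.52 (SE 0.25), HD minus NEC -2.39 and HD minus MD -0.56. Clean air itself left ADH6 within the spread of its arrays, with a CA minus NEC difference of 0.13 (95% confidence interval -0.40 to 0.65).

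ADH1C, the gamma subunit of class I, gave 9.60, 9.15 and 9.69 in NEC, 9.26, 8.98 and 9.24 in CA, 8.84, 8.71 and 7.05 in LD, 7.38, 7.03 and 7.83 in MD, and 6.64, 6.67 and 7.03 in HD. All LD, MD and HD arrays lay below all control arrays, and LD replicate 3 lay within the MD range. MD minus NEC was -2.07 (SE 0.36, 95% confidence interval -2.84 to -1.30, limma adjusted p = 0.0867), and MD minus CA was -1.75 (SE 0.36, limma adjusted p = 0.53). The MD minus NEC comparison passed when LD replicate 3 was left out of the shared estimate of spread (limma adjusted p = 0.00783), and also with an intensity trend (0.0382) or array weights (0.0429). It passed in only 1 of the 15 fits with an array left out, at limma adjusted p up to 0.357. Over the other settings the adjusted p ran up to 0.572. LD minus NEC was -1.28 with all arrays and -0.71 without LD replicate 3, and neither passed, in a comparison where 0.00147% of clusters were called and 0 members. Described without a test, HD minus CA was -2.38 (SE 0.36) and HD minus NEC -2.70.

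ADH1B, the beta subunit of class I, gave 8.37, 8.13 and 7.91 in NEC, 7.71, 8.47 and 8.34 in CA, 7.72, 8.19 and 6.69 in LD, 6.22, 6.77 and 7.15 in MD, and 5.99, 5.85 and 6.85 in HD. The MD and HD arrays lay below every control array, whereas LD overlapped both controls. MD minus NEC was -1.42 (SE 0.36, 95% confidence interval -2.19 to -0.65, limma adjusted p = 0.357) and MD minus CA -1.46 (SE 0.36, limma adjusted p = 0.595). LD minus NEC was -0.60 with all arrays and -0.18 without LD replicate 3. HD minus CA, as a description, was -1.94 (SE 0.36). ADH1B and ADH1C followed each other with r = 0.921 over the 15 arrays and r = 0.654 after each group's mean had been removed, which describes arrays that also share their processing.

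ADH1A, the alpha subunit, had a signal above the negative-control median on 7 of 15 arrays. It gave 4.49, 4.39 and 5.65 in NEC, 4.47, 5.33 and 5.52 in CA, 4.47, 5.12 and 4.30 in LD, 4.88, 4.71 and 4.61 in MD, and 3.74, 4.71 and 4.61 in HD. The groups overlapped throughout, and the MD minus NEC difference of -0.11 had a 95% confidence interval of -0.87 to 0.66. At that level a fold is not interpretable. The 3 class I genes are close paralogues, and sharing of probes between their clusters was not tested.

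ADH4 was the member whose CA and NEC arrays did not overlap. Its signals were 7.61, 7.72 and 8.56 in NEC, 6.36, 6.76 and 7.45 in CA, 6.36, 6.84 and 4.87 in LD, 5.38, 6.20 and 5.08 in MD, and 5.24, 4.47 and 5.22 in HD. Every CA array lay below every NEC array, and the CA array was below the NEC array by a difference of -1.26 on plate 1, -0.96 on plate 5 and -1.11 on plate 6. The mean difference CA minus NEC was -1.11 (SE 0.45, 95% confidence interval -2.06 to -0.16), but its limma adjusted p was 0.891, and 0 clusters passed in that comparison, against 7381 at an unadjusted p below 0.05. MD minus NEC was -2.41 (SE 0.45, 95% confidence interval -3.36 to -1.46, limma adjusted p = 0.12) and MD minus CA -1.30 (SE 0.45, limma adjusted p = 0.733). Without LD replicate 3, an array outside the comparison, the MD minus NEC difference passed (limma adjusted p = 0.034). That was the only 1 of 15 fits with an array left out that passed, at limma adjusted p up to 0.57. None of the 7 other settings passed (0.0517 to 0.463). HD minus CA was -1.88 and HD minus NEC -2.99 as a description, and 1 of the HD arrays lay below the mean negative-control level of 4.68 in that group, so the lower end of the ADH4 series was near background.

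**Figure D2:**
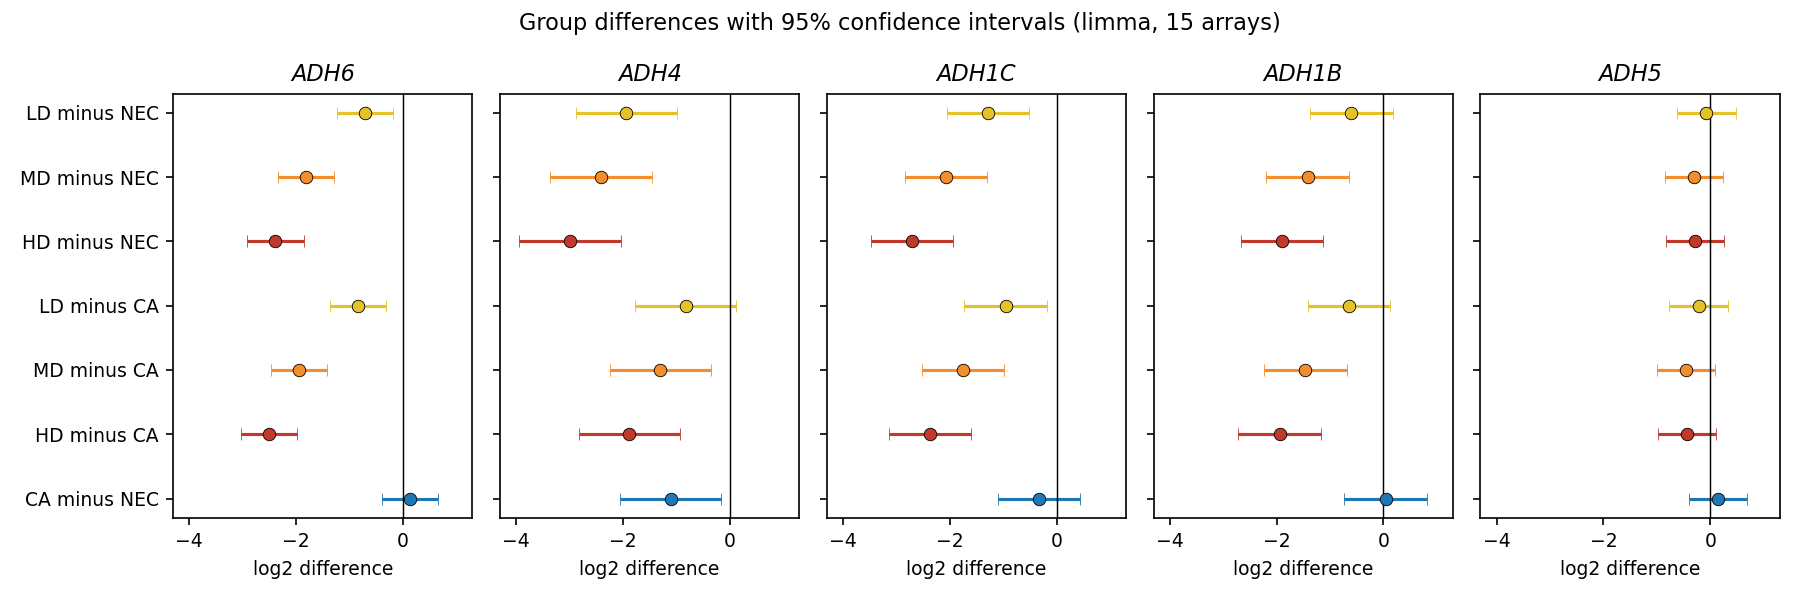
Differences between group means on the log2 scale (horizontal axis) for the 5 members above background on at least 14 arrays, with 95% confidence intervals from limma over 15 arrays; rows are comparisons. The ADH6 intervals for MD lie below 0 against both controls, the ADH5 intervals all include 0, and ADH4 alone has a CA minus NEC interval below 0.

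ADH5 had the smallest MD minus CA difference of the 5 members measurable on at least 14 arrays. It gave 11.55, 11.39 and 12.13 in NEC, 11.56, 11.83 and 12.13 in CA, 11.66, 12.02 and 11.18 in LD, 11.23, 11.38 and 11.56 in MD, and 11.08, 11.56 and 11.59 in HD. The 3 MD arrays lay just below the 3 CA arrays and overlapped NEC, and the other groups overlapped both controls. MD minus NEC was -0.30 (SE 0.26, 95% confidence interval -0.85 to 0.24, limma adjusted p = 0.909) and MD minus CA -0.45 (95% confidence interval -0.998 to 0.10, limma adjusted p = 0.854). The MD minus NEC interval of ADH5 did not overlap that of ADH6, which ended at -1.30, and this difference between genes was not tested further. The description for HD minus CA was -0.43, and -0.79 with the plate as a block.

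ADH7 was above the negative-control median on 1 of 15 arrays, CA replicate 3, at 4.74. Its values on the 15 arrays ran from 3.25 to 4.74, and no fold is given for it. Its differences enter the plot in chromosomal order, the plot of the enzyme lists and the medians over the 7 members, as do those of ADH1A. ADH1A and ADH7 were thus at or near background, which left ADH6, ADH1C, ADH1B, ADH4 and ADH5 as the measurable members.

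Counted by the criteria of the array study, an unadjusted p below 0.05 together with a fold change above 2, the members lower in MD than in NEC were ADH4, ADH6, ADH1B and ADH1C, 4 of 7, while 0.472% of all clusters met these criteria in that direction. The same 4 genes met them in MD against CA, where the background was 0.305%. That comparison shares the MD arrays, and it shares the CA arrays with the comparison from which the family was proposed. In LD against NEC there were 2, ADH4 and ADH1C (background 0.376%), and in LD against CA there were 0 (background 0.231%). ADH4 was the only 1 in CA against NEC (background 0.26%), and ADH6 the only 1 in MD against LD (background 0.556%). No member was higher by these criteria in any of the comparisons. The median over the 7 members was -1.42 in MD minus NEC and -0.60 in LD minus NEC, against -0.02 and -0.04 over all clusters.

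Without overlap between the arrays of the groups, 4 of 7 members were lower in MD than in NEC (background 6.98%), 5 in MD than in CA (6.23%), 3 in LD than in NEC (6.92%) and 2 in LD than in CA (6.06%). In CA against NEC it was ADH4 alone (5.16%). The additional member in MD against CA was ADH5, and the 3 in LD against NEC were ADH4, ADH6 and ADH1C. Counts against CA share its arrays with the comparison from which the family was proposed. In the comparisons that hold HD arrays, limma called ADH6 and ADH1C lower than CA, 2 of 7, where 0.0214% of clusters were called lower, and ADH4, ADH6, ADH1B and ADH1C lower than NEC, 4 of 7, where 0.0987% were called lower. Against LD it was ADH6 alone, 1 of 7 (0.0081% called lower), and against MD 0 members and 0 clusters were called by limma, with 6000 clusters at an unadjusted p below 0.05. With the plate as a block, ADH1C was no longer called against CA (limma adjusted p = 0.148), ADH1B against NEC (0.202) and ADH6 against LD (0.384). ADH1C was also not called against CA without moderation (0.276), with 2 groups in the fit (0.116), or without any 1 of its 3 HD or 3 CA arrays (0.0931 to 0.175). Nothing is read from these counts, since HD against CA was the source of the family.

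LD replicate 3 had the lowest value of its group for ADH6, ADH4, ADH1C, ADH1B, ADH1A, ADH5 and ADH7. The same array had the lowest mean of the bright protein-coding clusters of all 15, at 9.79, and the lowest negative-control median, at 4.30. Its part in the LD differences was not tested beyond leaving it out. Without it, LD minus NEC was -1.36 for ADH4, -0.50 for ADH6 and 0.15 for ADH5, where the value for ADH5 with all arrays was -0.07. Measured within plate 1, the LD mean was below the NEC array by a difference of -1.59 for ADH4, -1.40 for ADH1C, -0.84 for ADH1B and -0.54 for ADH6, and it was 0.07 for ADH5. Against the CA array of plate 1 the LD mean differed by -0.33 for ADH4, -1.05 for ADH1C, -0.17 for ADH1B, -0.93 for ADH6 and 0.06 for ADH5, so the values of ADH4 and ADH1B were smaller than against NEC. Within plate 5, MD minus the NEC array was -2.17 for ADH4, -1.73 for ADH1C, -1.41 for ADH1B and -0.00 for ADH5. Against the CA array of plate 5 it was -1.21 for ADH4, -1.57 for ADH1C, -1.76 for ADH1B, -2.15 for ADH6 and -0.44 for ADH5.

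The genes on either side of the cluster were examined next. These were STPG2, RAP1GDS1, TSPAN5, EIF4E and METAP1 before ADH5 and C4orf17, TRMT10A, MTTP, DAPP1 and LAMTOR3 after ADH7, taken by position and not by value. None of the 10 passed in any of the 10 comparisons, and the smallest limma adjusted p among them was 0.312. That value belonged to TSPAN5, a tetraspanin, at 1.09 in HD minus CA (SE 0.28). STPG2, C4orf17 and DAPP1 had mean signals of 3.44, 3.49 and 3.48, below the mean negative-control level of 4.67. At that level a fold is not interpretable, so these genes do not show whether the flanks changed. METAP1, which encodes a methionine aminopeptidase, was the nearest of the 10 before ADH5. TRMT10A, with a mean signal of 8.27, was the nearest after ADH7 that lay above the negative controls. Both had 95% confidence intervals that included 0 in MD minus NEC. Inside the cluster, the long non-coding RNA locus LOC100507053 overlaps ADH4, ADH6 and ADH1A by its coordinates. It had a mean signal of 4.86, close to the negative controls, and an HD minus CA difference of 0.17 (SE 0.39).

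**Figure D3:**
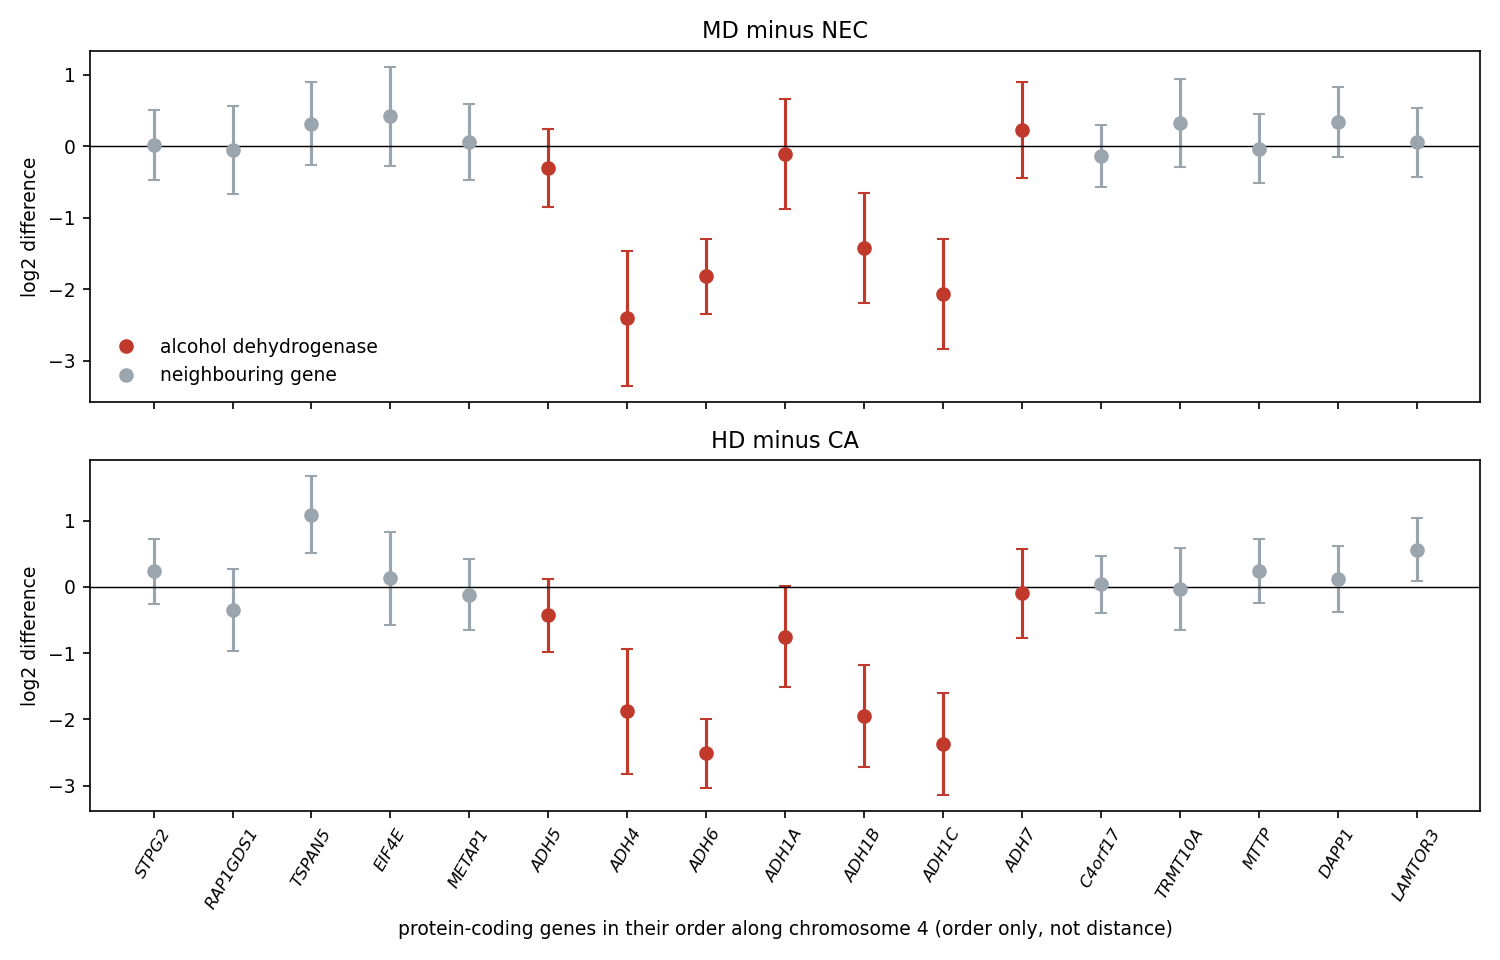
Log2 differences with 95% confidence intervals (vertical axis) for the 7 alcohol dehydrogenases and the 5 nearest protein-coding genes on each side, in chromosomal order, for MD minus NEC and HD minus CA. The intervals of ADH4, ADH6, ADH1B and ADH1C lie below 0 in both panels, whereas ADH5 and ADH7 at the ends of the cluster, and ADH1A within it, have intervals that include 0.

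The enzymes that act beside the family were counted from a pair of lists. Both lists were chosen with earlier results of these data known, so a call of their genes is no independent support. The aldehyde dehydrogenases oxidise the aldehydes that alcohol dehydrogenases form, and all 19 listed genes were measured. In MD against NEC 1 of them rose, 0 fell and 18 did not pass, and the median was -0.08. The gene that rose was ALDH3A1, which oxidises aromatic and lipid-derived aldehydes, with 12.95 in MD against 11.39 in NEC on average, a difference of 1.56 (SE 0.21, limma adjusted p = 0.0218). ALDH3A1 was also higher in HD than in NEC by 1.57 (SE 0.21, limma adjusted p = 0.00408), and CA minus NEC was 1.11 (SE 0.21, limma adjusted p = 0.629). Against clean air its difference was smaller, at 0.45 in MD (limma adjusted p = 0.808) and 0.47 in HD (0.766). Whether the calls of ALDH3A1 hold in the alternative fits was not tested. No aldehyde dehydrogenase passed in any other comparison. ALDH2, the mitochondrial enzyme of acetaldehyde, named for its role and not by the rule, was at -0.19 in MD minus NEC and -0.48 in HD minus CA without passing.

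Of 22 other enzymes of alcohols and carbonyls, 17 had a single-symbol cluster. In HD against CA 1 rose, 0 fell and 16 did not pass. Among the 16 were AKR1C1, AKR1C2 and AKR1C3, aldo-keto reductases at the upper end of the scale in every group, where a rise could not have been seen, and the median of the list fell on these genes. ALDH1A1 of the aldehyde dehydrogenases lay there too. The gene that rose was DHRS9, a short-chain dehydrogenase that oxidises retinol, with a mean of 8.16 in HD against 5.33 in CA. Its difference was 2.83 (SE 0.47, limma adjusted p = 0.0431), in a comparison where 0.0435% of clusters were called in either direction. Since the list was chosen with earlier results of these data known, the DHRS9 differences that involve HD arrays are a description and not a test. In HD against NEC the DHRS9 difference was 4.15 (limma adjusted p = 0.00116), from an NEC mean of 4.01 that was below the negative-control level, and 0.236% of clusters were called. In MD minus NEC it was 2.61 (SE 0.47, limma adjusted p = 0.0969). Clean air alone differed from NEC by 1.32 for DHRS9 (SE 0.47, limma adjusted p = 0.853), and MD minus CA was 1.29 (limma adjusted p = 0.753). ESD, the S-formylglutathione hydrolase that follows ADH5 in formaldehyde oxidation, was named for its role and had -0.17 in MD minus NEC and -0.19 in HD minus CA, with no pass.

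**Figure D4:**
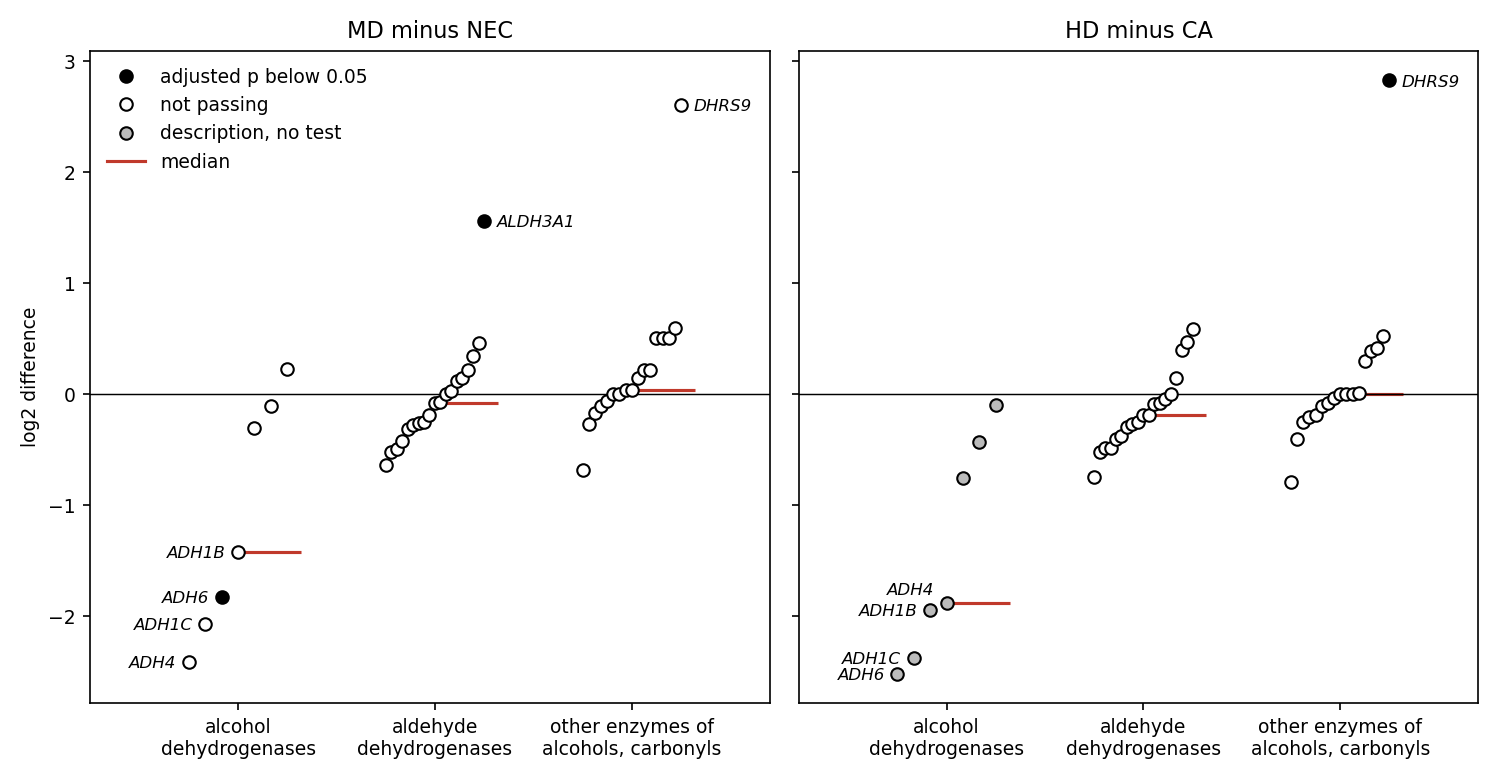
Log2 differences (vertical axis) of the 7 alcohol dehydrogenases, 19 aldehyde dehydrogenases and 17 other enzymes of alcohols and carbonyls, for MD minus NEC and HD minus CA; each point is a gene. Filled points passed at an adjusted p below 0.05, grey points are described without a test and red lines are medians, at -1.42 for the alcohol dehydrogenases and -0.08 for the aldehyde dehydrogenases in MD minus NEC. The lists were chosen with earlier results of these data known, so their filled points are no independent test.

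The genes whose signals over the 15 arrays most resembled each member were taken from 11907 protein-coding genes, by Pearson r, as a description of arrays that share groups and processing. For ADH6 they were PDE3A, a cyclic nucleotide phosphodiesterase (r = 0.951), and the tetraspan membrane proteins TM4SF4 (0.93) and TM4SF20 (0.925). For ADH1C they were CFI, the complement factor I protease (r = 0.969), PDE3A (0.96) and TM4SF20 (0.953). For ADH1B they were C1S, a protease of the classical complement pathway (r = 0.95), FCGBP, a mucus protein (0.926), and APOH, a plasma apolipoprotein (0.922). For ADH4 they were the complement components C5 (r = 0.939) and C3 (0.929) and the potassium channel KCNJ16 (0.929). The list of ADH5 held none of these genes, and consisted of ATP5F1C, a subunit of ATP synthase (r = 0.945), CBR1, a carbonyl reductase (0.927), and YIPF5, a protein of the Golgi (0.92). ADH1A, near background, was most like SSR1 (r = 0.919), ABCC4 (0.903) and PLBD2 (0.897). ADH1A followed ADH5 with r = 0.85 and ADH1B with r = 0.496, and within groups with 0.871 and 0.296. Because its signal was near background, nothing about the gene is read from these values. The part of the overall signal of each array in them was not tested.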

How the data were processed

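The authors processed the arrays with RMA (robust multi-array average) in the Transcriptome Analysis Console 4.0 and deposited log2 signals, here between 2.08 and 19.93. Of 138745 transcript clusters, 2995 controls were left out, and 612 negative controls among them gave the background, with medians of 4.30 to 4.85 per array. Arrays have no read depth, and their number, 3 per group, limits precision. Pairs of arrays correlated at r of 0.974 to 0.984. Members were matched through the probe annotation to clusters with exactly 1 symbol (36176 clusters), and genes and promoters to RefSeq tables (GRCh38.p14).

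The 5 group means were estimated for each of 135750 clusters from all 15 arrays by limma 3.58.1 (lmFit, eBayes; R 4.3.3 with the package data.table at version 1.17.8; two-sided, 10 residual and 6.32 prior degrees of freedom). Benjamini-Hochberg adjustment ran over all clusters, with a threshold of 0.05. The fit was tested on simulated data. Promoters were aligned with Biopython 1.88 (Python 3.11.15, pandas 2.3.3). The members, the lists and the tests were chosen with earlier results of these data known. Genes other than members were named by rule: the 5 nearest protein-coding genes on each side, list genes that passed in any comparison, and the 3 genes most like each member whose mean was above the negative controls.

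The exposure plate in the labels pairs CA with NEC arrays. Deviations from the group means correlated between them at r of 0.261 on plate 1, 0.0689 on plate 5 and 0.205 on plate 6 over 17579 protein-coding genes, and the plate was a block in an alternative fit. The plate layout described in the paper leaves too few vapour wells on a plate for 3 pools, so 1 plate number may cover several physical plates. The other alternatives were the replicate number as a block among doses, 2 groups only, no moderation, an intensity trend, quantile normalization, a filter on dim clusters, array weights, all rows of a gene, and leaving out each array.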

Additional observations from a re-analysis of the deposited data

How the results depend on the processing

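Every member had 1 cluster, so averaging all rows of a gene changed nothing. With the exposure plate as a block, ADH6 in MD minus NEC was -1.94 and lost its call, ADH4 moved to -1.34 in HD minus MD and to -2.07 in HD minus LD, and ADH5 changed sign in LD minus NEC at 0.14. The clusters called with that block were 10 in HD minus CA (59 without it), 118 in HD minus NEC (321), 2 in MD minus NEC (20), 1 in LD minus NEC (2) and 0 in HD minus LD (21). Among comparisons without HD arrays the block changed no other call of a member. Among those with HD arrays, ADH1C in HD minus CA, ADH1B in HD minus NEC and ADH6 in HD minus LD were no longer called. The replicate number as a block among the doses gave 4 clusters in HD minus LD and 1 in MD minus LD (0 in the fit without it). Deviations of arrays of different doses with the same number correlated at r of -0.144 to 0.151, so these arrays share only a number.

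Without moderation ADH6 in MD minus NEC was -1.82 with an adjusted p of 0.162, and 7, 113, 2, 0 and 1 clusters were called in HD minus CA, HD minus NEC, MD minus NEC, LD minus NEC and HD minus LD. With 2 groups in the fit ADH6 was -1.82 with an adjusted p of 0.174, and the counts in the same order were 0, 92, 1, 1 and 2. With an intensity trend ADH6 passed in MD minus CA at -1.95 and ADH1C in MD minus NEC at -2.07, and the counts were 102 in HD minus CA, 3 in MD minus CA, 1 in CA minus NEC, 97 in MD minus NEC, 17 in LD minus NEC, 79 in HD minus LD and 2 in MD minus LD. Array weights let ADH1C pass in MD minus NEC at -2.09, with 47 clusters there, 41 in HD minus LD and 5 in MD minus LD. Quantile normalization called 1 cluster in CA minus NEC, 4 in LD minus NEC, 35 in HD minus LD and 5 in MD minus LD. The filter on dim clusters called 33 in MD minus NEC and 44 in HD minus LD.

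With each array left out in turn, the counts ran from 6 to 79 in HD minus CA, 112 to 398 in HD minus NEC, 0 to 63 in HD minus LD, 1 to 31 in MD minus NEC, 1 to 3 in LD minus NEC, 0 to 2 in LD minus CA, and 0 to 1 in each of MD minus CA, CA minus NEC and MD minus LD. The fewest in HD minus CA came without HD replicate 3, in HD minus NEC without HD replicate 2, in HD minus LD without LD replicate 1 or 2, and in MD minus NEC without MD replicate 2 or 3. The MD minus NEC difference ran from -1.95 to -1.74 for ADH6, -2.73 to -2.11 for ADH4 and -2.28 to -1.88 for ADH1C. ADH6 in MD minus CA ran from -2.09 to -1.85, and passed without LD replicate 3 and without HD replicate 2. ADH1C in HD minus LD ran from -1.996 to -1.10. Small values changed sign, with ADH1B in CA minus NEC between -0.11 and 0.27, and ADH5 between -0.0012 (without NEC replicate 2) and 0.37 in CA minus NEC, between -0.42 and 0.00083 (without LD replicate 3) in LD minus CA, and between -0.27 and 0.15 (without NEC replicate 3 or LD replicate 3) in LD minus NEC.

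Signals near the negative controls limit ADH1A, ADH7 and the HD end of ADH4, where differences are compressed. The 3 arrays per group leave wide intervals for single genes, and the cause of the changed calls was not tested.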
